A study of Mus musculus with 20 samples.

Results

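Immediate-early response genes are genes that cells transcribe within minutes of a stimulus, before new protein is made. The 41 analysed here were taken by symbol from a written list out of the 24394 gene symbols held by all 3 count tables of the series. The rule uses no measured value, but the list was written with earlier results of these data known. They fall into 6 roles, with 9 AP-1 genes, 10 EGR, KLF and NR4A transcription factor genes, 3 MAP kinase phosphatase genes, 3 genes of mRNA decay, 7 genes of growth arrest and 9 other immediate-early genes. All 41 passed the filter on low counts in every comparison.

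The libraries hold messenger RNA of fibroadipogenic progenitors, muscle stromal cells with the capacity to become fibroblasts or fat cells, sorted freshly from the hindlimbs of male mice of the C57BL/6J strain. KPC groups received 2000000 KPCY cells, a mouse pancreatic cancer line, injected into the pancreas in 50 µL, and control groups had sham surgery. Day 14 has 3 control and 4 KPC libraries, day 21 has 3 of each, and day 26 has 4 control and 3 KPC libraries. The sort kept CD31-, CD45-, α7-integrin- and propidium iodide-negative cells that were SCA-1+ and Hoechst+, and neither the age of the mice nor any further allele is given. The labels call the libraries of a group biological replicates without saying whether each is 1 mouse, so p-values measure the spread between these libraries.

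Most genes of this class share a wiring in which the factors that switch them on, such as SRF, CREB and NF-kappaB, already sit in the resting cell and are activated by phosphorylation or release. Their products then either carry the signal on, as AP-1, EGR and NR4A transcription factors do, or end it, as MAP kinase phosphatases and the ZFP36 family of mRNA decay proteins do. In muscle progenitors they are known to respond to growth factors, cytokines, injury and stress, and also to the taking apart of tissue for cell sorting.

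The promoters of 4 members that differed between KPC and control libraries at day 21 are shown because each holds a match to the motif of 1 or more of these factors. They were chosen after the values were seen. RefSeq (GRCm38.p6) gave the 250 bases upstream of its transcript start for 32 of the 41 members, and Fosl1, Egr1, Egr3, Klf10, Zfp36l2, Ier2, Myc, Sik1 and Trib1 had no entry. Gene positions given further on are from GENCODE, whose starts differ for some genes. By its GENCODE position the Zfp36 window lies inside the gene, and the Ier3 window reaches past the start of Ier3. Each line reads 5′ to 3′ on the gene's strand with the matched letters in capitals. Zfp36 (chr7:28379229-28379478, minus strand) holds an SRF CArG box, Fos (chr12:85473640-85473889, plus strand) holds the short CREB motif TGACG at 2 places, Btg2 (chr1:134079156-134079405, minus strand) holds the full CREB motif TGACGTCA, and Ier3 (chr17:35821463-35821712, plus strand) holds an NF-kappaB site.
Zfp36: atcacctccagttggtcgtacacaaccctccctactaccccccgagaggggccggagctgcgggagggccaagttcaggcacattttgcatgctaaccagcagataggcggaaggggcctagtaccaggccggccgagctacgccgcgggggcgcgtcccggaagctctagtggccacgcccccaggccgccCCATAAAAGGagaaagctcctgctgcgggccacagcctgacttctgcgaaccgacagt
Fos: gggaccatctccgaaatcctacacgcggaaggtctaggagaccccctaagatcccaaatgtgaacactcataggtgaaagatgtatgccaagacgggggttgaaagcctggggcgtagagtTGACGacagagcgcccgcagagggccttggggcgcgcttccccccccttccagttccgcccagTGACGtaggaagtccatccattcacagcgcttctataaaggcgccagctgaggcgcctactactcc
Btg2: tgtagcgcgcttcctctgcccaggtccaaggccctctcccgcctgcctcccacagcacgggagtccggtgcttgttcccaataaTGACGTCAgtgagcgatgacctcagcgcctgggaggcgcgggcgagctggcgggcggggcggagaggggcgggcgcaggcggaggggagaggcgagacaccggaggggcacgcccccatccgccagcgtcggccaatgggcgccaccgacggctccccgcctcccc
Ier3: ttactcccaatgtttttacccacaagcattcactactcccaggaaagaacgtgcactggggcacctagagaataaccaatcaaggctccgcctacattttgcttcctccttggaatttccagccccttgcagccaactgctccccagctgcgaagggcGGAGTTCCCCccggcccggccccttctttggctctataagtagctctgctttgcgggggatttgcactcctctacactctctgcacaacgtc

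Both strands were searched over the same 250 bases of 27025 genes. TGACG, which every full TGACGTCA contains, was found in 18 of the 32 member promoters and in 19.785% of all promoters. TGACGTCA itself was found in 4 (Btg2, Dusp1, Maff and Plk2) against 1.769% of all promoters. The CArG box was found in 3 (Dusp5, Egr2 and Zfp36) against 1.624%, and the NF-kappaB site in 6 (Egr2, Fos, Fosb, Fosl2, Ier3 and Maff) against 8.233%. The AP-1 motif TGANTCA was in 2 member promoters against 7.819% of all, and the STAT motif TTCNNNGAA in 1 against 8.13%. A match describes letters in this window only.

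Total counts ran from 12.9 to 26.4 megacounts (units of 1000000) per library. Pdgfra, the defining surface receptor of these progenitors, was at 1197 to 1668 CPM (counts per 1000000 counts, scaled over all 20 libraries), and Ly6a, which encodes SCA-1, at 526 to 1460. The genes of the sorted-out surface proteins were below both of these but not at 0. Pecam1 (CD31) varied widely between libraries, at 4.50 to 241 CPM, with Ptprc (CD45) at 0.0401 to 5.75 and Itga7 (α7-integrin) at 1.82 to 18.7. In bulk RNA, fewer cells of a type and less RNA per cell cannot be told apart. The leading number of the library code in the labels, whose meaning is not given, is never shared by the control and KPC libraries of day 14 or of day 21, so that on those days code and tumour cannot be told apart. At day 26 the number 227 is shared by control replicates 1 to 3 and KPC replicates 1 and 2. The exons of Fosl1, Junb, Dusp1, Gadd45a and Plk3 overlap a gene on the opposite strand (Ccdc85b, Prdx2, Ergic1, E230016M11Rik and Tctex1d4), and without a stated use of strand in counting those reads cannot be told apart.

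The 41 genes spanned a wide range of levels in the sorted cells without a tumour. Per kilobase of exon, the day 21 controls were led by Jund at 658 ± 12.3 CPM per kilobase (SD, n = 3), Fos at 631 ± 42.3 and Jun at 591 ± 34.4, neighbours that differ by no more than the SD of Fos. In the day 21 KPC libraries Fos led by this measure at 1867 ± 62.2 CPM per kilobase, clear of the next 3, Zfp36 at 1012 ± 73.8, Jun at 1002 ± 138 and Jund at 978 ± 108, which overlap. Exon length was merged over all annotated transcripts, and for Zfp36 it is 3470 bases, the whole span of the gene. The order of the genes depends on this choice of length. At the other end, Fosl1 at 0.372 ± 0.118 and Dusp5 at 0.474 ± 0.0146 CPM per kilobase were the lowest in the day 21 controls.

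**Figure D1:**
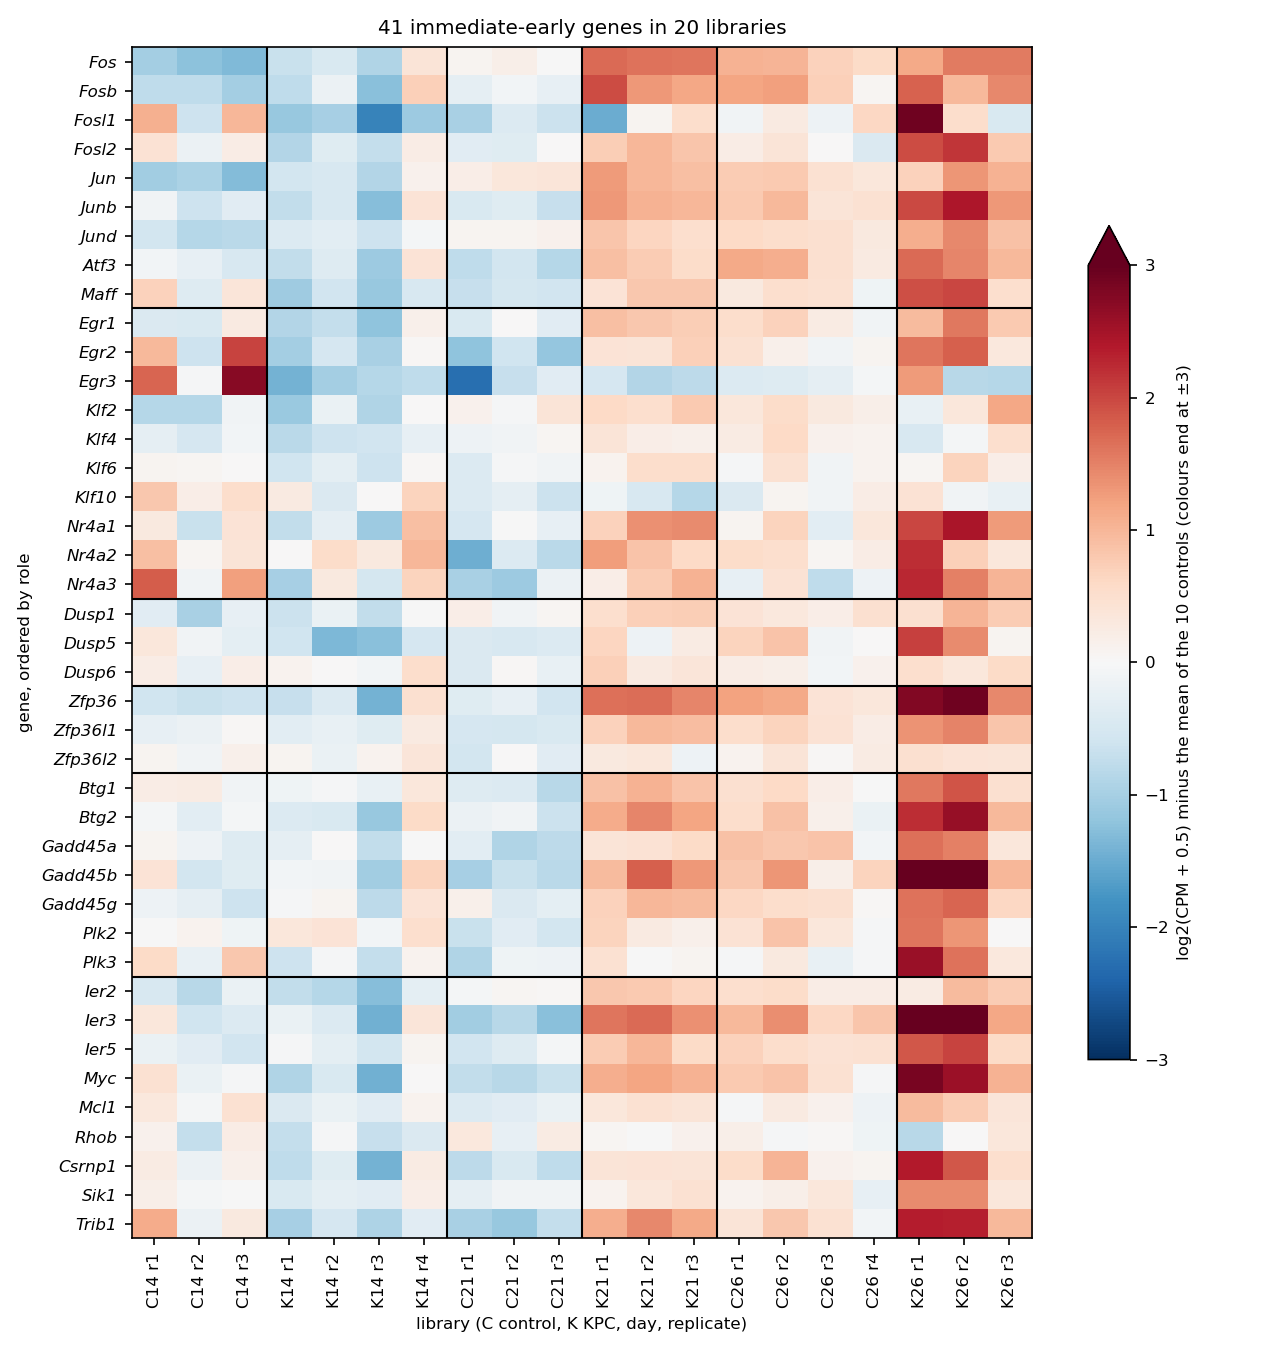
Rows are the 41 genes by role and columns the 20 libraries (C control, K KPC, with day and replicate), and colour is log2(CPM + 0.5) minus the mean of the 10 controls, with colours ending at ±3 (Gadd45b and Ier3 pass this in KPC replicates 1 and 2 of day 26). The day 21 KPC columns are above zero for most genes, the day 14 controls are low for Fos and Jun and, in replicates 1 and 3, high for Egr3, and KPC replicates 1 and 2 of day 26 hold most of the darkest cells.

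At day 21, 33 of the 41 genes rose in KPC libraries and none fell (edgeR quasi-likelihood test, Benjamini-Hochberg adjusted p under 0.05 over 13154 genes). Of all genes tested that day 12.5% were called, 6.38% higher and 6.11% lower. At an unadjusted p under 0.05, 36 of the 41 were higher and 0 lower, where 14.3% of all genes were higher and 13.4% lower (27.7% together). The median log2 fold change of the 41 was 1.05, against 0.01 over all genes, where 1 is a doubling. In 36 of the 41 the KPC and control libraries did not overlap, always with KPC above, against 33.2% of all genes in either direction and 16.5% with KPC above. DESeq2 called 35, all higher (17.2% of all genes, 9.14% higher), and scaling by library size alone gave 33, while it split the calls over all genes 1058 higher to 613 lower in place of 839 to 804.

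Among AP-1 genes, whose products pair as dimers on DNA, 8 of 9 rose. Fosb (chr7:19302696-19310051, minus strand), a partner of the JUN proteins, was at 278, 315 and 283 CPM in the 3 controls and 1305, 828 and 757 in the 3 KPC libraries. Every KPC library lay above every control of that day, KPC replicate 1 furthest. Its log2 fold change was 1.72 ± 0.19 (SE; adjusted p 0.000439). Junb (chr8:84974484-84978718, minus strand), a JUN family member that can hold back growth, was at 622, 667 and 526 CPM in controls and 2103, 1752 and 1692 in KPC libraries, again without overlap, a rise of 1.60 ± 0.13 (SE; adjusted p 2.99e-05). Fos itself (chr12:85473890-85477273, plus strand) went from 1480.3, 1585 and 1386 to 4557, 4342 and 4277 CPM. Its 3 KPC values lie close together and far above the controls, and the log2 change was 1.56 ± 0.11 (SE; adjusted p 1.56e-05). The rises of Atf3 (1.46), a stress-induced repressor, Maff (1.29), a small MAF protein, and Fosl2 (1.07) were of similar size. Jun (0.76) and Jund (0.56), both high in controls, rose least. Fosl1, the ninth, was at 0.512, 0.992 and 0.762 CPM in controls and 0.207, 1.60 and 2.38 in KPC libraries, which overlap, with an adjusted p of 0.535.

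Of the 10 EGR, KLF and NR4A genes, 7 rose. The largest change was in Nr4a2 (chr2:57106830-57124003, minus strand), an orphan nuclear receptor, which was at 2.40, 5.52 and 4.09 CPM in controls and 18.9, 14.1 and 11.8 in KPC libraries, a log2 change of 1.89 ± 0.31 (SE; adjusted p 0.00273). Its relatives Nr4a1 (1.43) and Nr4a3 (1.42) rose as well. Egr2 (chr10:67535475-67542188, plus strand), a zinc finger factor, was at 11.7, 18.1 and 12.0 CPM in controls and 36.7, 36.3 and 45.5 in KPC libraries. Its groups did not overlap, and the change was 1.49 ± 0.19 (SE; adjusted p 0.00048). Egr1 rose by 1.04 from a high control level. The Krüppel-like factors moved little. Klf6 (0.57) and Klf2 (0.45) rose, whereas Klf4 (0.31, adjusted p 0.101) and the TGF-beta-inducible Klf10 (-0.04, adjusted p 0.916) did not pass the test. Egr3 was at 1.62, 5.85 and 7.54 CPM in controls and 6.68, 5.05 and 5.45 in KPC libraries, and these overlap.

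Of the genes whose products end the response, 2 of 3 in mRNA decay and 2 of 3 phosphatases rose. Zfp36 (chr7:28376784-28380253, minus strand) encodes tristetraprolin, which binds AU-rich elements and sends cytokine and immediate-early mRNAs to decay. It was at 897, 980.4 and 777 CPM in controls and 3626, 3694 and 3220.4 in KPC libraries, a wide gap beside the spread within each group. The log2 change was 1.98 ± 0.13 (SE; adjusted p 6.78e-06). Its relative Zfp36l1 went from 328, 324 and 341 to 752, 907 and 881 CPM (1.35 ± 0.11 (SE), adjusted p 2.83e-05), and Zfp36l2 (0.45, adjusted p 0.0986) did not pass. Among the phosphatases, Dusp6 (chr10:99263231-99267489, plus strand), which acts on ERK in the cytoplasm, was at 21.5, 30.1 and 24.8 CPM in controls and 47.8, 35.5 and 37.7 in KPC libraries (0.66 ± 0.17 (SE), adjusted p 0.0232). Dusp1, the nuclear phosphatase of p38, JNK and ERK, was at 917, 734 and 822 and 1123, 1294 and 1325 CPM (0.59 ± 0.12 (SE), adjusted p 0.00891). Both rises were modest and without overlap. Dusp5, at 1.18, 1.13 and 1.20 CPM in controls and 3.06, 1.53 and 2.19 in KPC libraries, did not overlap either but had an adjusted p of 0.291 at these low counts.

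In the growth arrest group 6 of 7 rose. Gadd45b (chr10:80930073-80932204, plus strand), a stress sensor that binds MAP kinase kinase kinases, was at 24.1, 30.2 and 27.5 CPM in controls and 95.1, 169 and 121 in KPC libraries. All 3 KPC libraries lay above every control of that day, and the change was 2.22 ± 0.19 (SE; adjusted p 0.000101). Btg2 (chr1:134075170-134079120, minus strand), an antiproliferative partner of the mRNA deadenylase complex, was at 216, 227 and 156 and 527, 680.3 and 559 CPM, also without overlap (1.55 ± 0.15 (SE), adjusted p 0.000101). Btg1 (1.46), Gadd45a (1.11), Gadd45g (1.05) and the polo-like kinase gene Plk2 (0.90) rose on the log2 scale, and Plk3 (0.56, adjusted p 0.16) did not pass.

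The other immediate-early genes held the largest change of the 41, and 8 of 9 rose. Ier3 (chr17:35821684-35822923, plus strand), a short-lived regulator of cell survival, was at 26.8, 30.9 and 22.9 CPM in controls and 168, 180.3 and 144 in KPC libraries. These groups lie far apart, with a log2 change of 2.60 ± 0.14 (SE) and an adjusted p of 2.37e-06. Trib1 (chr15:59648350-59657099, plus strand), a pseudokinase that brings C/EBP factors to degradation, was at 20.8, 18.5 and 24.9 and 88.2, 113 and 90.7 CPM, again far apart (2.17 ± 0.15 (SE), adjusted p 9.81e-06). Myc (chr15:61985391-61990374, plus strand), the growth-promoting transcription factor, went from 94.9, 88.5 and 99.3 to 337, 361 and 330.1 CPM (1.85 ± 0.10 (SE), adjusted p 2.68e-06). The 3 libraries of each group lay close together. Ier5 (1.10), Csrnp1 (1.05), Ier2 (0.74), the survival gene Mcl1 (0.70) and the kinase gene Sik1 (0.46) also rose. Rhob, a small GTPase gene, was at 743, 504 and 704 CPM in controls and 616, 592 and 653 in KPC libraries and did not pass (adjusted p 0.775).

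**Figure D2:**
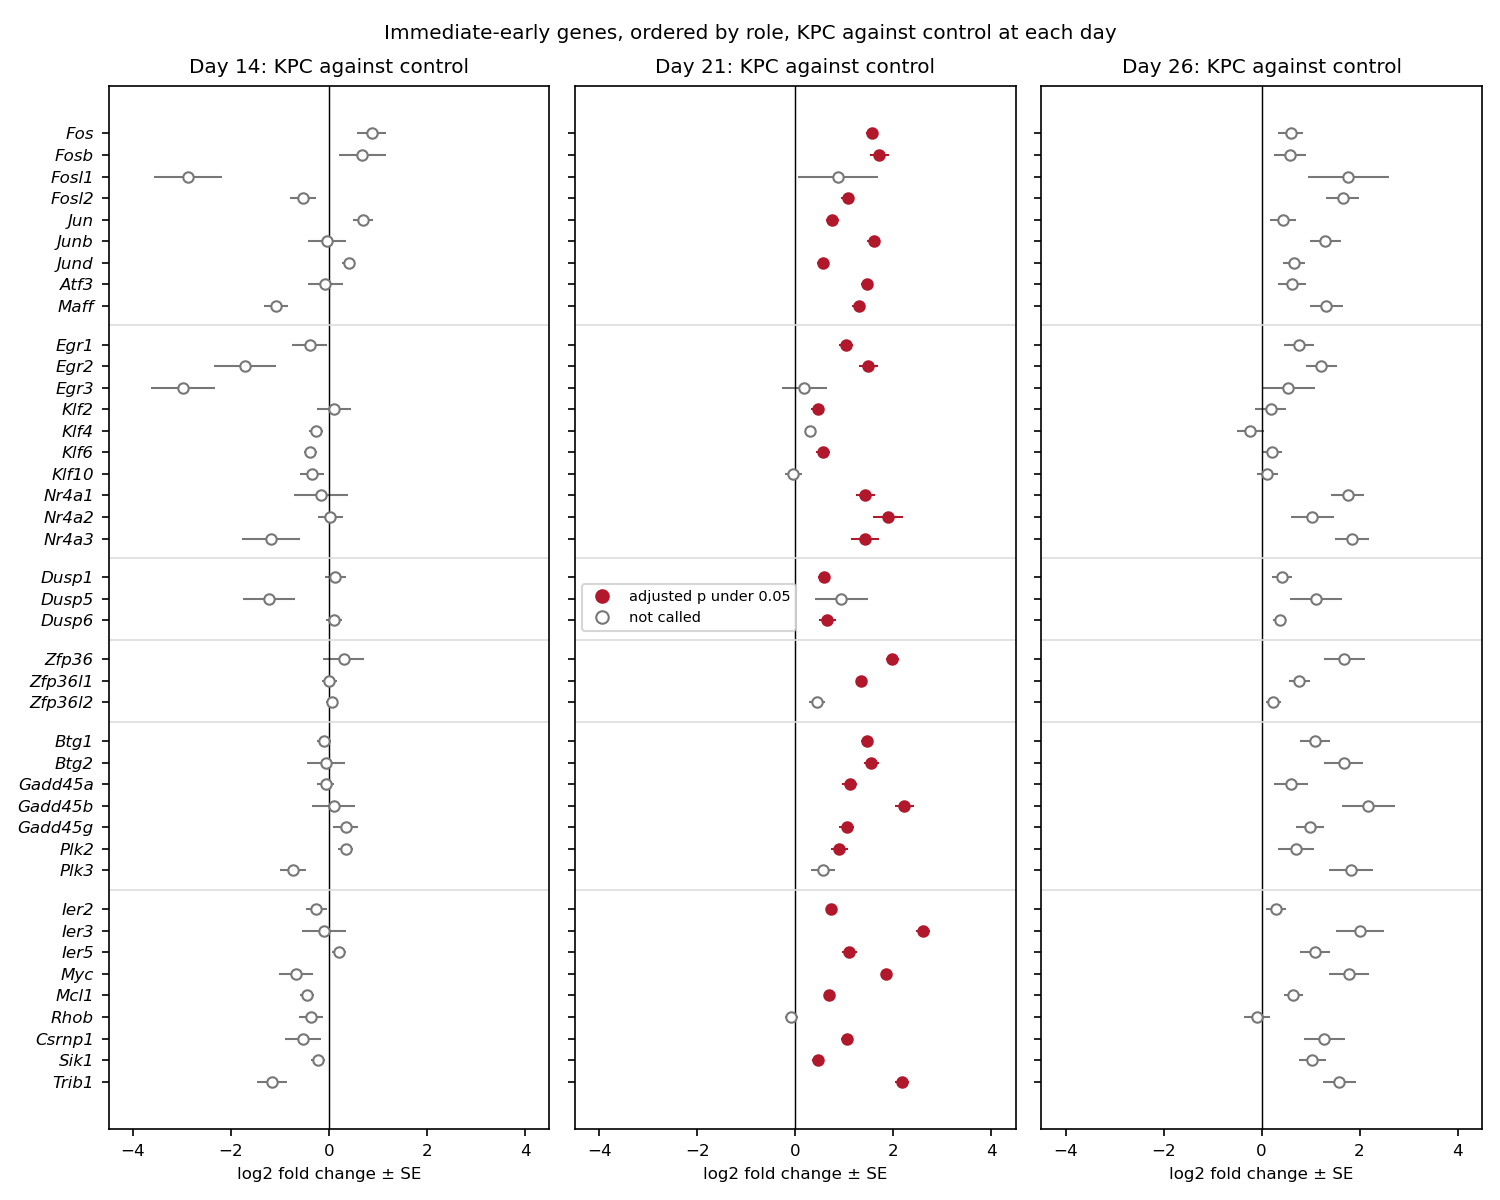
Each point is a gene's log2 fold change of KPC against control with its standard error, filled red where the adjusted p was under 0.05, in 1 panel per day and ordered by role. Day 21 has 33 filled points, all to the right of zero, while days 14 and 26 have none and day 26 has wider bars.

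The day 21 KPC libraries were also set against the controls of the other days. Against the controls of all 3 days, 15 of the 41 genes had every day 21 KPC library above all 10 controls, where 6.72% of all genes did. These were Fos, Fosl2, Jun, Junb, Egr1, Nr4a1, Dusp1, Dusp6, Zfp36, Zfp36l1, Btg1, Btg2, Gadd45g, Ier2 and Myc. At day 26 every KPC library was above all 10 controls in 14 of the 41 (5.11% of all genes), and at day 14 in 0 (2.06%). Ier3 and Gadd45b, which had the largest changes at day 21, are not among those 15 genes: the highest day 26 control was at 147 CPM for Ier3 and 123 for Gadd45b, within the range of the day 21 KPC libraries. Of the 33 genes called, 26 had every day 21 KPC library above the 3 day 14 controls, and 18 above the 4 day 26 controls. The 33 were called because they were high in these same KPC libraries, and no share over all genes was counted for either comparison. Whether 26 or 18 is unusual therefore cannot be said. In a fit against the mean of all 3 control groups, an alternative chosen after the data were seen, 23 genes rose (12.1% of all genes called, 7.26% higher), and in a single fit of all 20 libraries 18 did (3.08% called, 1.94% higher). Leaving out 1 library at a time left 27 to 33 calls.

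**Figure D3:**
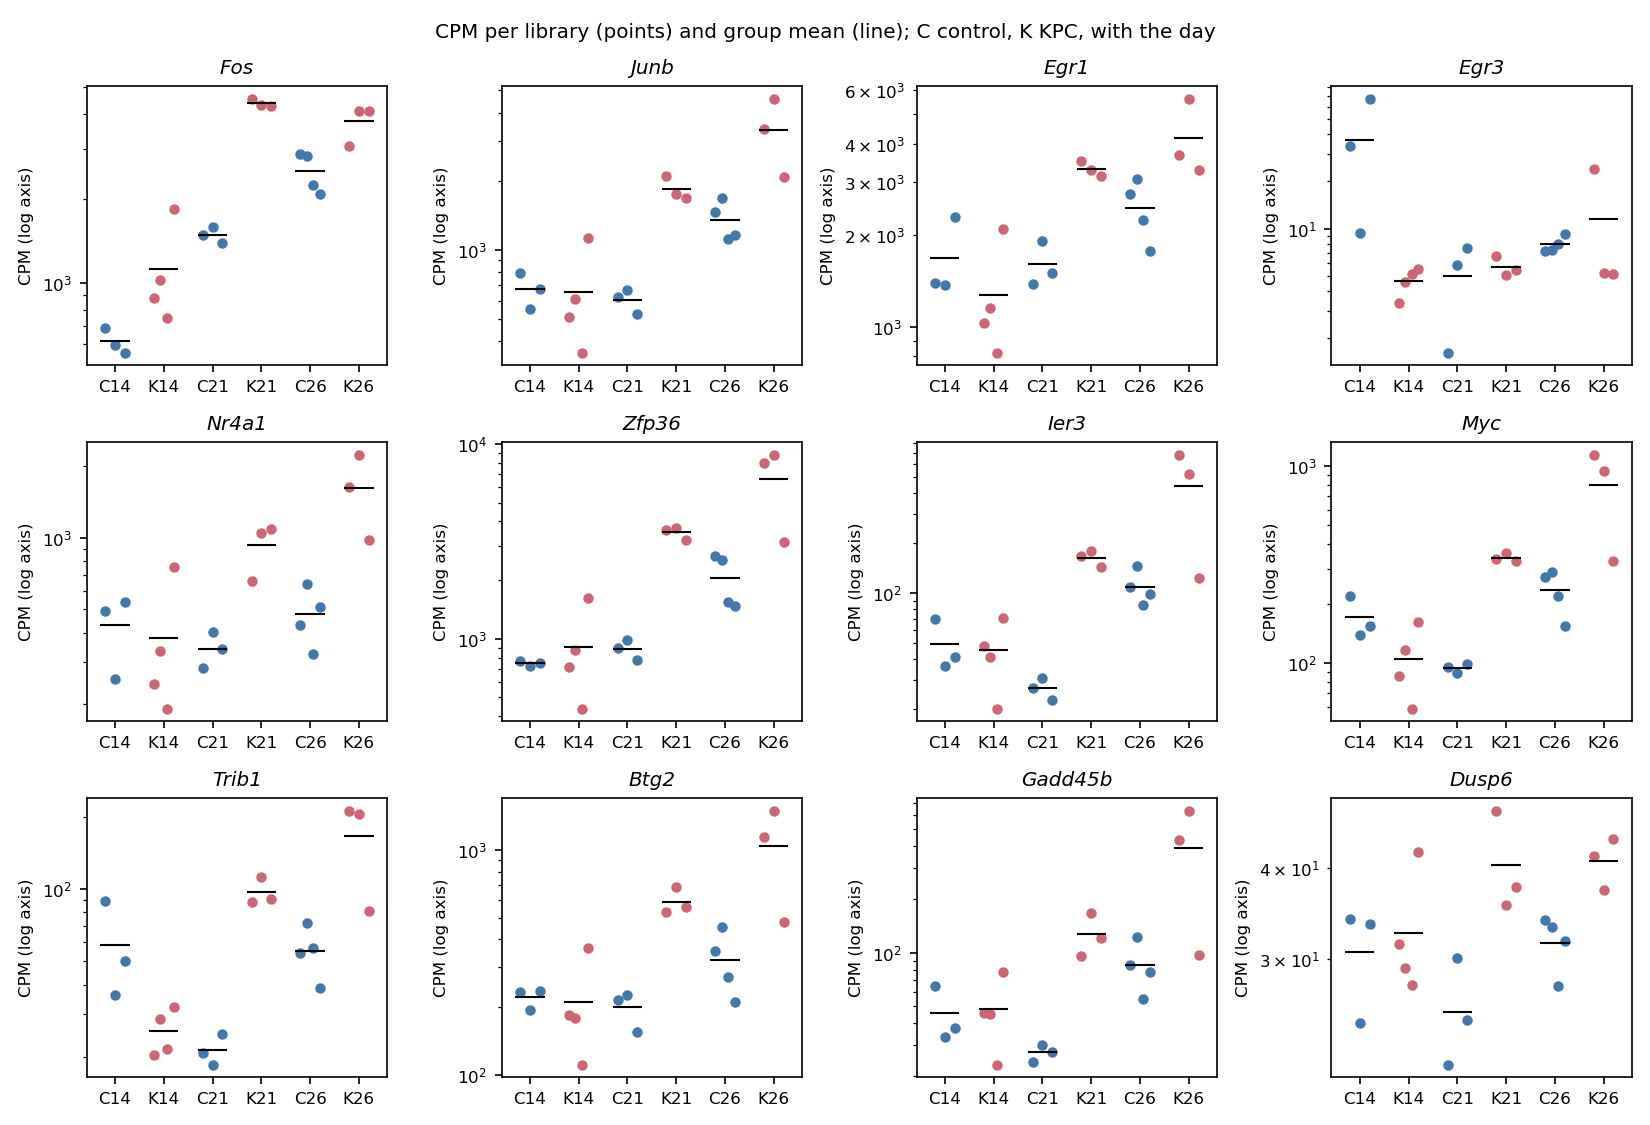
CPM per library (points, log axis) and group mean (line) for 12 genes in the 6 groups, controls in blue and KPC in red. Fos, Zfp36 and Myc of the day 21 KPC libraries lie above every control of every day, Ier3 and Gadd45b overlap the day 26 controls, and Egr3 is highest in the day 14 controls.

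Genes of the same signalling pathways that are not members were counted from lists written with results of these data known. Of 19 further rapidly induced genes tested at day 21, 14 rose and none fell by edgeR (16 higher and 0 lower at an unadjusted p under 0.05), and 15 rose by DESeq2. Over all genes that day edgeR called 6.38% higher and 6.11% lower, and DESeq2 called 9.14% higher. At an unadjusted p under 0.05, 14.3% of all genes were higher. Nfkbia, the inhibitor of NF-kappaB, was at 134, 111 and 113 CPM in controls and 414, 389 and 414 in KPC libraries (1.76 ± 0.11 (SE), adjusted p 6.76e-06). Ptgs2, the inducible prostaglandin synthase, changed by 1.99 ± 0.14 (SE) (adjusted p 1.49e-05) and Tnfaip3, a brake on NF-kappaB, by 1.98 ± 0.14 (SE) (adjusted p 1.52e-05). These rises are against the day 21 controls. The day 21 KPC libraries of Ptgs2 lay below every day 14 control and within the range of the day 26 controls. Those of Nfkbia lay above every day 14 control but within the range of the day 26 controls. The mRNA of the kinases and factors upstream had a median log2 fold change of -0.007, with calls no more frequent than over all genes. Of 24 genes of ERK, SRF and CREB regulators, none rose by edgeR or DESeq2 (2 higher at an unadjusted p under 0.05) and Map2k2, which encodes MEK2, was lower (-0.51, adjusted p 0.0465). Of 13 ERK feedback and further phosphatase genes, 2 rose, Errfi1 (1.13), an inhibitor of the EGF receptor, and Dusp3 (0.33). Of 12 heat shock genes, none rose by either tool (1 higher at an unadjusted p under 0.05) and Hspa1a (-0.91) and Hspa1b (-0.85), near-identical copies whose counts are uncertain, were lower.

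Markers of cell type moved at day 21 as well, where edgeR called 6.38% of all genes higher and 6.11% lower. Progenitor genes summed to 112167 to 120403 CPM in controls and to 95540, 98275 and 105851 in KPC replicates 1 to 3, all below the controls, and of 15 genes 4 rose and 3 fell (Pi16, Cd34 and Col3a1) by edgeR, where DESeq2 called 4 in each direction. Of 12 endothelial genes 8 rose and 1 fell by edgeR, and 11 and 1 by DESeq2, with summed levels of 559 to 596 CPM in controls and 532 to 1045 in KPC libraries. Macrophage and monocyte genes summed to 16.7 to 30.3 and 23.8 to 101 CPM, with 1 of 10 tested (Cd14) called by edgeR (4 higher at an unadjusted p under 0.05) and 3 by DESeq2, and with Fcgr1 at 0 in the controls. Myofibre genes summed to 29.1 to 58.4 and 53.4 to 569 CPM, with 0 of 11 called by edgeR (3 at an unadjusted p under 0.05) and 3 by DESeq2. Of 8 mural genes edgeR called 2 higher (Abcc9 and Mcam) and 1 lower (Cspg4), and of 5 glial genes 1 higher (Cdh19). The sums of mural genes (224 to 249 and 139 to 429 CPM) and glial genes (29.6 to 34.4 and 24.2 to 95.1 CPM) overlapped between the groups. Satellite cell and lymphocyte sums overlapped as well. Neutrophil genes summed to at most 2.08 CPM in controls and 2.34 to 19.8 in KPC libraries. The erythroid sum, at 0.394 to 2.27 and 5.60 to 10.4 CPM, came from Alas2 alone, which edgeR called higher. The globin genes Hba-a1 and Hbb-bs were at 0 in both groups. KPC replicate 3 had the lowest sum of the KPC libraries in the endothelial, macrophage and monocyte, myofibre, satellite cell, mural, glial, neutrophil and erythroid lists and the highest in the progenitor list. The part of these shifts in the day 21 values was not tested.

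At day 26 no gene passed the edgeR test, so none of the 41 is called (0.0% of 13157 genes), yet most were higher in KPC libraries. An unadjusted p under 0.05 was reached by 25 of the 41, all higher, against 34.3% of all genes in either direction and 20.3% higher and 13.9% lower. The groups did not overlap in 19 of the 41, all with KPC above, against 29.0% of all genes and 13.7% with KPC above. The median log2 difference of the 41 was 0.99. By DESeq2 23 of the 41 were called, all higher, where 21.6% of all genes were called and 13.7% were higher, and by limma-voom with quality weights 21, all higher, against 34.3% called and 17.7% higher.

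The 3 KPC libraries of day 26 differed from each other. KPC replicate 3 was the lowest of them in 31 of the 41 genes (75.6%), against 39.5% of all genes. Over the 41 genes the median difference from the control mean, on the log2(CPM + 0.5) scale, was 1.27 in replicate 1, 1.02 in replicate 2 and 0.31 in replicate 3. All 3 libraries had most genes above every control, 34, 34 and 25 of the 41 in replicates 1 to 3, where the shares over all genes were 38.9%, 41.1% and 25.3%. Without replicate 3 edgeR called 29 of the 41, of which 28 were higher and Klf4 was lower, against 51.6% of all genes, 25.7% higher. Within the libraries of code number 227, 28 were called (27 higher, 1 lower) against 47.1%, 24.3% higher.

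Among AP-1 genes at day 26, Fosl2 was at 289, 323, 251 and 184 CPM in the 4 controls and 961, 1099.9 and 424 in the 3 KPC libraries, without overlap. Junb was at 1464, 1689, 1115 and 1166 and 3392, 4603 and 2093 CPM, likewise without overlap. Their log2 differences were 1.66 ± 0.34 (SE) and 1.30 ± 0.31 (SE), each short of the threshold with adjusted p of 0.0599 and 0.064. Fos, at 2882, 2836, 2241 and 2071 and 3091, 4132 and 4115 CPM, differed by 0.59, from controls that were higher than those of day 21. In the nuclear receptor genes, Nr4a1 was at 432, 640.1, 324 and 510.0 CPM in controls and 1635, 2231 and 976 in KPC libraries (1.76 ± 0.33 (SE), adjusted p 0.0592), and Nr4a3 at 15.2, 24.3, 10.5 and 16.2 and 88.6, 52.1 and 36.8 CPM (1.85 ± 0.35 (SE), adjusted p 0.0592). Neither overlapped. Klf4 had another order, at 1126, 1435, 1035 and 1021 CPM in controls and 684, 909.7 and 1353 in KPC libraries, where replicates 1 and 2 were below every control and replicate 3 inside their range.

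The decay gene Zfp36 was at 2669, 2541, 1541 and 1466 CPM in the day 26 controls and 7989, 8806 and 3131 in the KPC libraries. All 3 KPC libraries were above the controls, replicate 3 by the least, and the log2 difference was 1.69 ± 0.42 (SE; adjusted p 0.0674). Zfp36l1 was at 672, 737, 629.5 and 546 and 1184, 1304 and 826 CPM, a difference of 0.77 ± 0.22 (adjusted p 0.0742). Dusp6, at 33.9, 33.2, 27.6 and 31.7 CPM in controls and 41.5, 37.3 and 43.8 in KPC libraries, differed by 0.38 ± 0.13 (adjusted p 0.103) without overlap, and Dusp5, at 3.09, 3.62, 1.61 and 1.78 and 8.87, 5.53 and 1.92 CPM, overlapped. Btg2 was at 355, 452, 273 and 211 CPM in controls and 1142, 1490.5 and 477 in KPC libraries (1.68 ± 0.40 (SE), adjusted p 0.0639), and Plk3, a stress-responsive polo-like kinase gene, at 12.9, 16.3, 11.3 and 13.0 and 82.2, 42.1 and 16.6 CPM (1.82 ± 0.45 (SE), adjusted p 0.0674). In both genes replicate 3 stood just above the highest control. Trib1, at 54.0, 72.0, 56.7 and 38.7 and 213, 207 and 80.9 CPM, and Myc, at 273, 291, 218 and 155 and 1141, 940.1 and 329 CPM, had the same order, with differences of 1.59 ± 0.34 and 1.78 ± 0.41 and adjusted p of 0.0609 and 0.0634. Without replicate 3 these became 1.90 ± 0.21 (adjusted p 0.000186) and 2.14 ± 0.24 (adjusted p 0.000221).

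**Figure D4:**
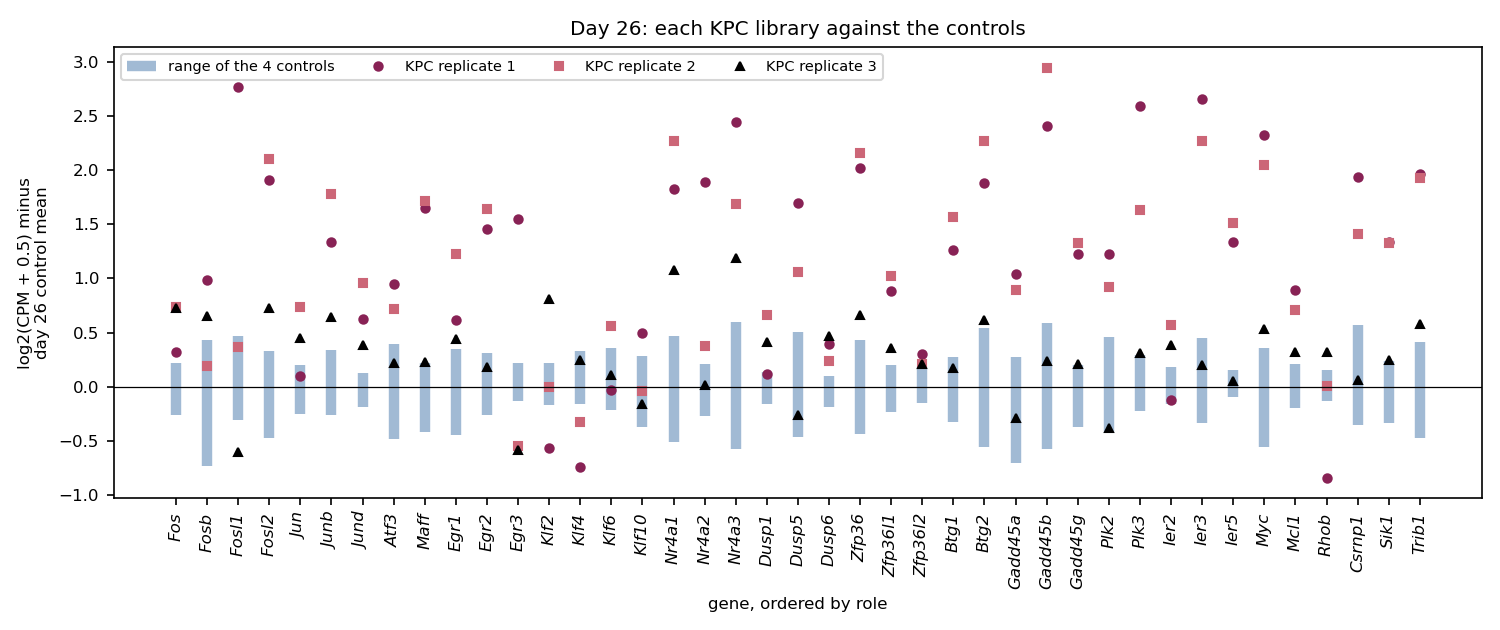
For each gene, ordered by role, the bar spans the 4 day 26 controls and the points are the 3 KPC libraries, all as log2(CPM + 0.5) minus the mean of those controls. KPC replicates 1 and 2 lie above the bar in 34 of 41 genes each, and replicate 3, the black triangle, lies above it in 25 and is the lowest of the 3 in 31.

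The same KPC libraries differed in markers of cell type at day 26. Progenitor genes summed to 41646, 69933 and 108378 CPM in KPC replicates 1 to 3 and to 100946 to 120506 in the 4 controls. Endothelial genes summed to 1183, 344 and 435 CPM against 390 to 567, and macrophage and monocyte genes to 468, 44.5 and 25.5 CPM against 18.6 to 28.7. By edgeR no gene of these lists was called. By DESeq2 4 of 12 endothelial and 3 of 11 macrophage and monocyte genes were higher, and of 15 progenitor genes 1 was higher and 3 were lower. Of all genes DESeq2 called 21.6%, with 13.7% higher. None of the genes of these lists was at 0 throughout a day 26 group. The erythroid sum was 34.9, 22.4 and 2.73 CPM against 0.274 to 2.17, again from Alas2 alone, with Hba-a1 and Hbb-bs at 0. The myofibre, satellite cell, mural, glial, neutrophil and lymphocyte sums overlapped the controls. The part of these shifts in the values of the 41 genes was not tested.

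At day 14 none of the 41 genes was called, where 1.12% of 13344 genes were, 0.682% higher and 0.435% lower. An unadjusted p under 0.05 was reached by 13, of which 4 were higher and 9 lower in KPC libraries, against 14.3% of all genes (7.8% higher and 6.46% lower). The groups did not overlap in 7 of the 41 (13.3% of all genes), and the median log2 difference was -0.11. DESeq2 called 5 (Fosl1, Jun, Maff, Egr3 and Trib1, only Jun higher) against 4.5% of all genes, and limma-voom called 5 (Fosl1, Jun, Jund, Maff and Mcl1) against 4.86%. The AP-1 genes split at this day. Jun was at 743, 794 and 623 CPM in the 3 controls and 1047, 1087, 824 and 1672 in the 4 KPC libraries, without overlap (0.70 ± 0.20 (SE), adjusted p 0.134). Fos, named after its values were seen, was at 687, 599 and 560.3 and 880.3, 1018, 745 and 1829 CPM (0.87 ± 0.29 (SE), adjusted p 0.231). Maff went the other way, at 76.5, 35.9 and 60.7 CPM in controls and 22.2, 31.3, 21.1 and 33.4 in KPC libraries (-1.08 ± 0.25 (SE), adjusted p 0.087). In all 3 genes the groups did not overlap.

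Egr3 and Trib1 had high and scattered controls at day 14. Egr3 was at 33.5, 9.41 and 67.4 CPM in controls and 3.34, 4.55, 5.16 and 5.56 in KPC libraries, with a log2 difference of -2.97 ± 0.65 (SE) and an adjusted p of 0.114. Control replicate 2 stood far below the other controls and still above every KPC library. Trib1 was likewise higher in every control than in every KPC library, with control replicate 2 the lowest control. It was at 88.9, 36.1 and 50.4 CPM in controls and 20.2, 28.8, 21.5 and 32.2 in KPC libraries (-1.17 ± 0.31 (SE), adjusted p 0.128). Fosl1, named after its values were seen, was at 3.65, 0.801 and 3.44 CPM in controls and 0.406, 0.494, 0 and 0.437 in KPC libraries, low throughout and without overlap (-2.87 ± 0.69 (SE), adjusted p 0.0628). Without control replicate 2, 4 genes passed the test, all lower in KPC libraries: Fosl1, Maff, Egr3 and Trib1. Over all genes that fit called 188 of 13590, of which 101 were lower. KPC replicate 4 was the highest KPC library in Jun, Fos, Maff, Egr3 and Trib1. Its leading code number differs from the number shared by the other KPC libraries of that day. Without KPC replicate 4 Fosl2 and Klf6 passed, both lower, where 255 of 13187 genes were called, 110 of them lower.

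The other genes that the naming rule picks at day 14 did not pass the test either. Mcl1 was at 404, 312 and 444 CPM in controls and 239, 281, 256 and 348 in KPC libraries (-0.45, adjusted p 0.155) and Klf6 at 385, 381 and 364 CPM in controls and 241, 298, 237 and 372 in KPC libraries (-0.38, adjusted p 0.231). Among the polo-like kinase genes, Plk3 was at 20.1, 11.3 and 23.4 CPM in controls and 8.49, 13.0, 7.85 and 14.3 in KPC libraries (-0.73, adjusted p 0.224), and Plk2 at 25.9, 28.4 and 24.1 CPM in controls and 33.3, 35.3, 24.7 and 37.5 in KPC libraries (0.34, adjusted p 0.312). Dusp5 was at 2.37, 1.60 and 1.36 CPM in controls and 0.993, 0.395, 0.449 and 1.11 in KPC libraries, all low, without overlap and lower in KPC (-1.22, adjusted p 0.308). Dusp6 was at 34.0, 24.6 and 33.5 CPM in controls and 31.4, 29.2, 27.7 and 42.0 in KPC libraries (0.10, adjusted p 0.852). The decay genes overlapped their controls as Dusp6 did, with Zfp36 at 764, 724 and 754 CPM in controls and 717, 877, 437 and 1614 in KPC libraries (0.30, adjusted p 0.833) and Zfp36l2 at 247, 218 and 257 CPM in controls and 248, 203, 250.3 and 298 in KPC libraries (0.07, adjusted p 0.87). The sign of Dusp6, Zfp36 and Zfp36l2 turned when a single library was left out. Beside these, Rps6ka1, an ERK-activated kinase gene, was the 1 of 24 regulators that rose (1.51, adjusted p 0.0473).

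Cell type markers differed at day 14 too, where edgeR called 0.682% of all genes higher and DESeq2 called 4.5% in either direction. Endothelial genes summed to 417 to 499 CPM in controls and 570 to 763 in KPC libraries, with 2 of 12 called higher by edgeR and 11 by DESeq2. The other lists whose sums did not overlap were all higher in KPC libraries, with progenitor genes at 99101 to 104390 CPM in controls and 105069 to 118575 in KPC libraries, mural genes at 99.8 to 171 and 215 to 309, glial genes at 18.1 to 31.5 and 50.1 to 101, macrophage and monocyte genes at 17.0 to 22.4 and 24.2 to 53.2, satellite cell genes at 1.98 to 3.67 and 5.36 to 14.6, and neutrophil genes at 0.200 to 2.04 and 4.56 to 8.11. The part of these markers in the day 14 values was not tested.

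The controls were not level across days. From day 14 to day 21, 21 of the 41 genes changed in the sham controls, 6 higher and 15 lower, where 23.4% of 13391 genes were called (9.92% higher and 13.5% lower). Those higher were Fos, Jun, Jund, Klf2, Dusp1 and Ier2. The 3 largest falls were all in transcription factors. Egr3 went from 33.5, 9.41 and 67.4 CPM at day 14 to 1.62, 5.85 and 7.54 at day 21 (-2.87 ± 0.75 (SE), adjusted p 0.0302), Egr2 from 54.4, 18.0 and 114 to 11.7, 18.1 and 12.0 (-2.15 ± 0.60 (SE), adjusted p 0.0374) and Nr4a3 from 65.0, 16.6 and 43.1 to 8.90, 8.26 and 15.9 (-1.90 ± 0.53 (SE), adjusted p 0.0362). Day 14 replicate 2 was the lowest of its group in all 3, and for Egr2 it was at 18.0 CPM against 18.1 in the highest day 21 control. Leaving out 1 control left 9 to 20 of the 21 calls. Of 10 such fits Egr3 and Nr4a3 were called in 4 each and Egr2 in 1 (without day 14 replicate 2), while Fos and Klf10 were called in all 10. Without the filter on low counts 6 were higher and 9 lower, where 2984 of 17584 genes were called, 1265 higher and 1719 lower. Scaling by library size gave 6 higher and 17 lower, and split all calls 652 higher to 2331 lower in place of 1329 to 1809.

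From day 21 to day 26, 11 genes rose in the controls and none fell, where 0.478% of all genes were called (0.388% higher and 0.0896% lower). DESeq2 called 20, all higher, against 2.1% of all genes (1.58% higher). At an unadjusted p under 0.05, 32 were higher and 0 lower, against 12.1% of all genes (6.33% higher and 5.77% lower). Ier3 went from 26.8, 30.9 and 22.9 to 109, 147, 85.1 and 98.3 CPM (2.02 ± 0.26 (SE), adjusted p 0.012), Atf3 from 168, 196 and 158 to 635, 608, 403 and 346 (1.51 ± 0.21 (SE), adjusted p 0.0118) and Myc from 94.9, 88.5 and 99.3 to 273, 291, 218 and 155 (1.30 ± 0.22 (SE), adjusted p 0.0286). In all 3 genes every day 26 control was above every day 21 control. The others were Fos, Junb, Nr4a2, Zfp36, Zfp36l1, Btg1, Plk2 and Ier5. The number of calls rested on single libraries, with 1 call (Zfp36l1) left without day 21 control replicate 1, 2 without replicate 3, and 16 without day 26 control replicate 4.

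Over the whole span, from day 14 to day 26, 16 genes rose and 2 fell in the controls (22.3% of all genes called, 9.7% higher and 12.6% lower). Fos went from 687, 599 and 560.3 to 2882, 2836, 2241 and 2071 CPM (2.04 ± 0.13 (SE), adjusted p 3.15e-07) and Fosb from 199, 196 and 165 to 760.3, 784, 548 and 351 (1.72 ± 0.25 (SE), adjusted p 0.00103), both without overlap. Egr3 (-2.21, adjusted p 0.0495) and Klf10 (-0.57, adjusted p 0.0219) were the 2 that fell. With 1 control left out, 15 to 19 genes were higher and 0 to 5 lower. Fos and Fosb were called in all 10 of these fits, Klf10 in 7 and Egr3 in 2, and the 5 lower came without day 14 replicate 2 (Egr2, Egr3, Klf10, Nr4a3 and Plk3). By role, 6 of 9 AP-1 genes rose, and of the 10 EGR, KLF and NR4A genes 2 rose (Klf2 and Klf4) and 2 fell. Under scaling by library size 15 rose and 2 fell, and all calls split 692 higher to 2326 lower in place of 1299 to 1693. Mice and library codes differ between days, so day and library code cannot be told apart.

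**Figure D5:**
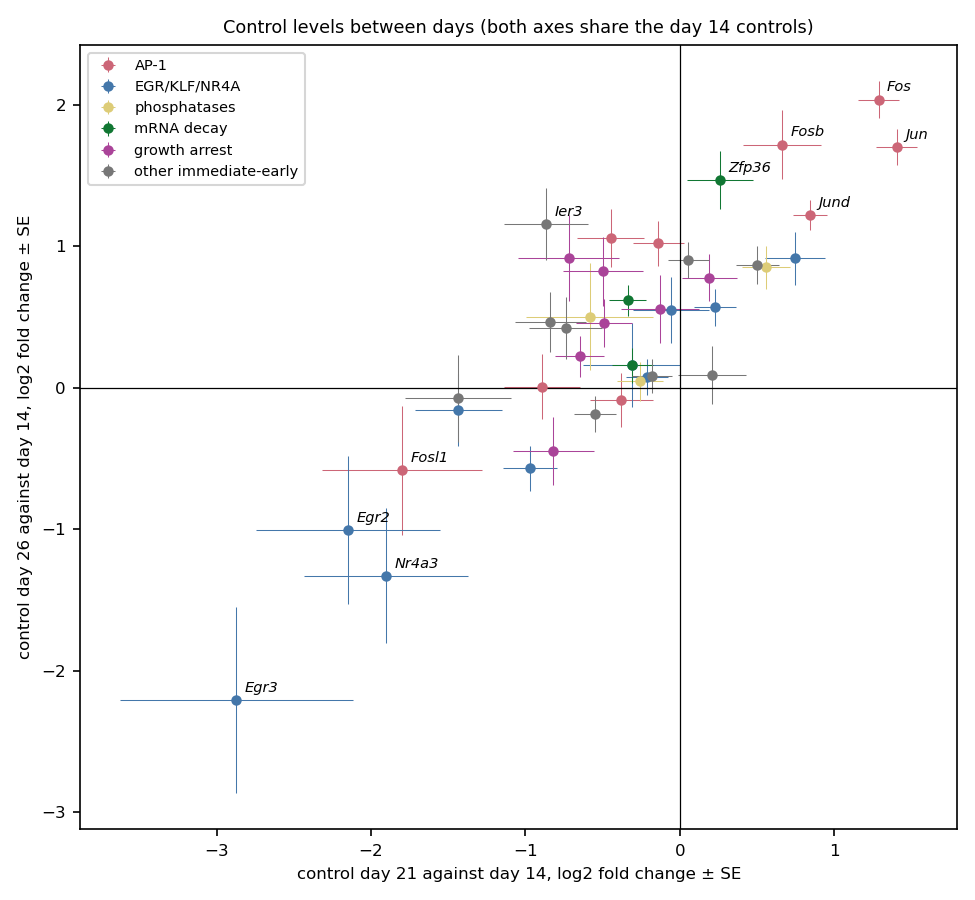
Each point is a gene's log2 fold change between control groups with standard errors, day 21 against day 14 on the horizontal axis and day 26 against day 14 on the vertical, coloured by role. Both axes share the day 14 controls, Fos and Jun lie high on both and Egr3 lies lowest on both.

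The difference of the KPC effect between days was tested in 1 fit of all 20 libraries, each day against its own controls. From day 14 to day 21 it rose in 7 of the 41 genes and fell in none, where 0.644% of 14141 genes were called (0.537% higher and 0.106% lower). At an unadjusted p under 0.05 there were 29 higher and 0 lower, against 15.1% of all genes (8.6% higher and 6.54% lower). DESeq2 called 21, all higher, where 2.77% of all genes were called (2.01% higher). The largest was Trib1, whose KPC difference was -1.17 at day 14 and 2.17 at day 21, a change of 3.37 ± 0.48 (SE; adjusted p 0.00225). Egr2 changed by 3.23 ± 0.68 (adjusted p 0.0392), Myc by 2.56 ± 0.51 (adjusted p 0.0308) and Maff by 2.40 ± 0.44 (adjusted p 0.0153). Btg1 (1.59), Zfp36l1 (1.36) and Mcl1 (1.16) were the others. The controls of all 7 also fell from day 14 to day 21, with log2 changes from -0.34 (Zfp36l1) to -2.15 (Egr2), and that fall is part of the contrast. Leaving out 1 library gave from 1 call (Trib1) to 25. From day 21 to day 26 no gene was called by edgeR (0.0% of 14141 genes), and 4 of the 41 reached an unadjusted p under 0.05, against 12.9% of all genes (7.53% higher and 5.37% lower). DESeq2 called 57 genes there over the whole table and 0 of the 41. Without KPC replicate 3 of day 26, 4 of the 41 were called (21.9% of all genes), Fos (-1.04) and Klf4 (-0.85) lower and Plk3 (1.65) and Sik1 (0.84) higher.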

How the data were processed

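The authors deposited raw counts per gene symbol, whole numbers with no normalization, in 1 table per day. Per the submitters' processing notes, bcl2fastq 2.20, Bowtie, STAR, DESeq2 1.36.0, R 4.2.1 and build mm10 were used, with no roles given. Not given in the sources used here are the counting program, its strand setting and the gene annotation. Per the labels' protocols, Illumina stranded mRNA libraries were made from RNA of integrity 7 or higher and read as pairs of 59 bases. Columns were matched to samples by the library codes in the labels, and 24394 symbols were shared by the 3 tables.

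Counts were fitted with edgeR 4.0.16 (R 4.3.3) with TMM scaling, filterByExpr (minimum count 10, minimum total 15) and a robust quasi-likelihood test, 2-sided, with Benjamini-Hochberg adjustment over all genes tested. A gene is called at an adjusted p under 0.05, and the SE is the size of the log2 fold change over the root of the F statistic. Each day was fitted alone, the control comparisons on the 10 controls, and the differences of the KPC effect on all 20 libraries. CPM use TMM scaling over all 20 libraries. Scripts were tested on simulated data. The reads carry no molecular identifiers, so the depth of 12.9 to 26.4 megacounts (units of 1000000) bounds counting error only. Replicate numbers did not pair the libraries, since same-numbered control and KPC libraries did not deviate together.

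The members and all lists were chosen with earlier results of these data known. In each role and day the 2 called genes with the largest change (mean log2 CPM of at least 1), or with none called the 2 with the smallest p, are named with every library's value, and in control comparisons the 3 largest. The exception is Egr3 in the controls of day 26 against day 14, given without its day 26 library values. Other genes are named after their values were seen. Alternatives were DESeq2 1.42.0, limma-voom with quality weights (limma 3.58.1), RLE or library-size scaling, no filter, a replicate block, 1 fit of all libraries, code 227 alone at day 26, and leaving out each library. Genes were placed with GENCODE vM21 on build GRCm38, and promoters are from RefSeq GRCm38.p6.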

Additional observations from a re-analysis of the deposited data

Results flagged for a closer look

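In groups of 4 libraries, 82 sets of 4 values of the 41 genes were checked for a library standing far from the others, a check that chance meets about 1 time in 20, and 1 was found. Gadd45a, a growth arrest gene, was at 42.4 CPM in day 26 control replicate 4, while the other 3 controls of that day were at 79.5 to 84.1 CPM. That library is also the day 26 control without the code number 227.

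The KPC effect differed between day 14 and day 21 in 7 genes by the contrast in the edgeR fit of all 20 libraries. The log2 differences were 3.37 for Trib1 (adjusted p 0.00225), 3.23 for Egr2 (adjusted p 0.0392), 2.56 for Myc (adjusted p 0.0308), 2.40 for Maff (adjusted p 0.0153), 1.59 for Btg1 (adjusted p 0.0385), 1.36 for Zfp36l1 (adjusted p 0.0142) and 1.16 for Mcl1 (adjusted p 0.0268). In each the KPC difference at day 21 was the higher one. Trib1 was the 1 call left when day 14 control replicate 3, day 21 control replicate 1 or 2, or day 21 KPC replicate 2 was left out.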

How the results depend on the processing

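Genes called over the whole table, and then calls among the 41, are given as pairs. At day 14 (149 and 0) the pairs were 600 and 5 by DESeq2, 278 and 1 without the filter on low counts, 649 and 5 by limma-voom, 265 and 1 against the controls of all 3 days (an alternative chosen after seeing the data), 2 genes in a single fit of all libraries, and 40 to 255 and 0 to 4 with 1 library left out. At day 21 (1643 and 33) they were 436 and 18 in the fit of all libraries and 717 to 2644 and 27 to 33 with 1 left out. At day 26 (0 and 0) they were 2838 and 23 by DESeq2, 4519 and 21 by limma-voom, 4889 and 24 in the fit of all libraries, 5784 and 35 against the controls of all 3 days, 6287 and 28 within code 227, and 0 to 6972 and 0 to 29 with 1 left out, above 0 only without KPC replicate 3. In the controls, day 26 against day 21 (64 and 11) gave 281 and 20 by DESeq2 and 5 to 129 and 1 to 16 with 1 left out, day 21 against day 14 gave 2054 to 3458 and 9 to 21, and day 26 against day 14 gave 1902 to 2948 and 16 to 20. The KPC effect of day 21 against day 14 (91 and 7) gave 391 and 21 by DESeq2 and 24 to 956 and 1 to 25 with 1 left out, and that of day 26 against day 21 (0 and 0) gave 57 genes by DESeq2, 1 with library-size scaling, and 0 to 3201 and 0 to 4. With the replicate number as a block, calls were 361 and 2 at day 14 (Fosl2 and Klf10), 111 genes for the controls of day 26 against day 21, and 1 gene for the KPC effect of day 26 against day 21. The block moved no other count by over 1.5 times, and every pair of same-numbered libraries correlated at 0.128 or less (-0.0976 at the lowest).

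In the comparisons with calls among the 41, no sign turned in a called gene under any alternative run. None of the 41 was called at day 14, at day 26 or for the KPC effect of day 26 against day 21, so this says nothing there. Among genes not called, up to 11 signs turned per alternative at day 14, 3 at day 21 and 4 at day 26. Up to 8 turned for the KPC effect of day 26 against day 21, and up to 4 for the controls of day 26 against day 14. The turned signs of genes named for the day follow. At day 14, against the controls of all 3 days, Fos was at -0.24, Fosb at -0.12, Jun at -0.34 and Zfp36 at -0.28, and the signs of Jund and Klf10 turned as well. With the block Dusp6 was at -0.0265, Zfp36 at -0.18 and Zfp36l2 at -0.0214, and Zfp36l2 was at -0.0137 by limma-voom. With 1 library left out, Dusp6 ran from -0.0426 to 0.17, Zfp36 from -0.12 to 0.52 and Zfp36l2 from -0.0185 to 0.15. At day 21 Fosl1 was at -0.12, Egr3 at -0.98 and Rhob at 0.0348 against the controls of all 3 days, and Klf10 at 0.0195 with library-size scaling. With 1 library left out, Egr3 ran from -0.24 to 0.61, Klf10 from -0.25 to 0.13 and Rhob from -0.24 to 0.0244. At day 26 Klf2 was at -0.19 by limma-voom, -0.33 within code 227 and from -0.29 (without KPC replicate 3) to 0.46 with 1 left out, and Klf4 at 0.0697 against the controls of all 3 days. The causes were not tested. Fosl1 and Dusp5, under 4 CPM in most libraries, are limited by depth.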

Other observations

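Rapidly induced genes outside the 41 moved in the controls too. Of 19 tested, 8 fell from day 14 to day 21 and 7 rose from day 21 to day 26 in the edgeR fit of the 10 controls, where 13.5% of all genes were lower in the first step and 0.388% higher in the second. Ptgs2, the inducible prostaglandin synthase, was at 452, 318 and 315 CPM in the day 14 controls, 52.4, 70.2 and 62.8 at day 21 and 316, 533, 203 and 303 at day 26. The day 21 controls were the lowest, below every control of both other days. Its KPC libraries were at 123, 112, 103 and 283, 276, 255 and 208 and 191, 245 and 262 CPM at days 14, 21 and 26. Every KPC library was below every control at day 14 and above every control at day 21, and the groups overlapped at day 26. Nfkbia followed the same course in the controls, at 285, 199 and 253, 134, 111 and 113 and 415, 541, 323 and 443 CPM. The KPC effect on 5 of the 19 (Ptgs2, Nfkbia, Ppp1r15a, Cebpb and Nfil3) rose from day 14 to day 21 (0.537% of all genes), with Ptgs2 at 3.22 ± 0.48 (SE) (adjusted p 0.00282). The fall of the Ptgs2 controls from day 14 to day 21 is part of that contrast.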
